A study of Homo sapiens with 8 samples.

Results

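The tissue kallikreins KLK5 to KLK14 are secreted serine proteases that surface epithelia use to shed their outermost cells. They are the rows of the deposited raw count table with those 10 gene names, 10 of 58735 genes listed. Read counts of all 10 were examined in 8 RNA-seq libraries, 4 of miR-155OE and 4 of CTRL, both as 2 groups and as 4 same-numbered pairs. All 8 libraries come from EPC2-hTERT, an esophageal epithelial line immortalised with telomerase. miR-155OE is a stable line made by lentiviral overexpression of miR-155-5p, and the labels call the other line only Control, without naming a control vector. Both lines spent 2 days on porous inserts (pores of 0.4 µm) and another 5 days under 1.8 mM calcium, before exposure to air from above made them stratify. The study asks how raised miR-155-5p alters the epithelium and its barrier. The labels do not say that the numbered libraries of a line are separate cultures, so p-values measure the spread between these libraries, which may be technical. Whether each line is 1 clone or a pool is not stated either.

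Kallikreins are made as inactive zymogens and are switched on by cleavage of a short propeptide. In the skin, KLK5 can activate itself and then KLK7 and KLK14, and the active enzymes cut corneodesmosin, desmoglein 1 and desmocollin 1, the proteins that hold the outermost cells together. The inhibitor LEKTI, encoded by SPINK5, restrains KLK5, KLK7 and KLK14, and its loss causes the scaling disorder Netherton syndrome. KLK5 can also cut the protease-activated receptor PAR2, through which proteases provoke inflammatory signals in keratinocytes.

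The 10 genes lie next to each other on the minus strand of chromosome 19, in a block of 140.9 kb on GRCh38, chr19:50943303-51084245. The block starts with KLK5 (ENSG00000167754, chr19:50943303-50953093) and ends with KLK14 (ENSG00000129437, chr19:51077495-51084245). Within it KLK7 (ENSG00000169035) lies at chr19:50976482-50984099 and KLK10 (ENSG00000129451) at chr19:51012739-51020175. No stretch of 31 bases was shared between the exons of any of the 45 pairs of members.

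The stretch of coding sequence around the catalytic serine shows how the enzymes differ in what they can cut, and it is printed for the members on which the results turn. Each line is 33 bases of the GENCODE release 29 transcript on GRCh38, 5′ to 3′ along the gene. The capitals mark, in order, the codon for the bottom of the substrate pocket, the codon 2 before the catalytic serine and the serine codon itself.
KLK5: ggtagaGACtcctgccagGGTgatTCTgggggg
KLK10: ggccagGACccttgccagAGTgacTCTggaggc
KLK7: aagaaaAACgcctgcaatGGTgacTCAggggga
KLK12: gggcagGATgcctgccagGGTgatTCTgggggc
KLK9: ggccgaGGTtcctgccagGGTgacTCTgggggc
KLK5, KLK10 and KLK12 carry aspartate in the pocket, as do KLK6, KLK8, KLK11, KLK13 and KLK14. An aspartate there is the textbook mark of a protease that cuts after arginine or lysine. KLK7 carries asparagine at that codon, and KLK7 is known as the chymotrypsin-like member, which cuts after tyrosine and phenylalanine. KLK9 carries glycine there. KLK10 has a serine codon 2 before the catalytic serine, where the other 9 have glycine.

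The overexpressed microRNA is shown because its seed gives the site to look for in the kallikrein messages. The mature strand below is the RefSeq sequence on GRCh38.p14 (chr21:25573983-25574006, plus strand), with the seed, bases 2 to 8, in capitals.
hsa-miR-155-5p: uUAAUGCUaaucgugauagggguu
The matching site, AGCATTA, was absent from the longest annotated 3′ UTR of the 9 members that have one, and KLK9 has none annotated in that release. Over all 19146 genes with an annotated 3′ UTR, 10.47% held the site. Reads of MIR155HG, the host gene of the microRNA, were 0 in all 8 libraries, and the counts do not measure the mature microRNA.

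The libraries held 33443635 to 40589679 counted reads in miR-155OE and 34131130 to 52746852 in CTRL, with CTRL 3 the deepest. Mitochondrial genes took 1.01 to 2.92% of counts in miR-155OE and 1.23 to 2.78% in CTRL. All 7 markers of stratified squamous epithelium were expressed, with a summed level of 42993 to 56130 CPM (read counts scaled by library size) in miR-155OE and 50661 to 61426 CPM in CTRL. Of the mucosal keratins among them, KRT13 was at 0.372 to 8.17 CPM in miR-155OE and 4.15 to 17.6 CPM in CTRL, and KRT4 at 3.18 to 47.9 CPM in miR-155OE and 60.4 to 126 CPM in CTRL. Of the immune markers, CD14 made up nearly all of a sum of 8.68 to 15.1 CPM in miR-155OE and 7.56 to 9.67 CPM in CTRL, and PTPRC had 1 read in all. The fibroblast list summed to 98.2 to 221 CPM in miR-155OE and 92.8 to 145 CPM in CTRL, nearly all of it COL1A1, and COL3A1, DCN and LUM were at 0. Endothelial markers summed to 1.37 to 2.83 CPM in miR-155OE and 1.87 to 2.99 CPM in CTRL, melanocyte markers to 1.19 to 2.31 and 1.58 to 2.43 CPM with TYR at 0, and columnar markers stayed at or under 0.207 CPM with MUC2 and CDX2 at 0. The part of these markers in the results was not tested.

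All 10 kallikreins gave reads, over a wide range of levels. Levels per length are given as TPM, which also divides by the gene's length, as mean ± SD of 4 libraries. KLK5 had the highest mean TPM in both groups, at 535 ± 102 TPM in miR-155OE and 286 ± 63.1 TPM in CTRL. Its place above KLK10 rests on the exon lengths, 1653 bases for KLK5 and 3853 for KLK10. In mean CPM KLK10 was the higher, at 601 against 304 in miR-155OE and 369 against 165 in CTRL. KLK10 stood at 453 ± 39.2 TPM in miR-155OE and 274 ± 40.5 TPM in CTRL, and KLK7 at 386 ± 67.3 and 280 ± 44.5 TPM. These 3 genes lay close together in CTRL: KLK5 exceeded KLK10 in 4 of 4 miR-155OE libraries and 3 of 4 CTRL libraries, and KLK10 exceeded KLK7 in 4 of 4 and 2 of 4. KLK5 exceeded KLK7 in 4 of 4 miR-155OE libraries and 2 of 4 CTRL libraries, with KLK7 the higher in CTRL 3 and CTRL 4. A clear step down separated them from KLK12, at 145 ± 8.34 TPM in miR-155OE and 136 ± 24.1 TPM in CTRL, which KLK7 exceeded in 8 of 8 libraries. KLK11 followed at 130 ± 12.2 TPM in miR-155OE and 102 ± 12.3 TPM in CTRL, below KLK12 in 7 of 8 libraries. KLK8 stood at 53.1 ± 10.5 TPM in miR-155OE and 36.7 ± 4.82 TPM in CTRL, below KLK11 in 8 of 8 libraries. KLK6, at 33.9 ± 15.1 and 22.0 ± 7.02 TPM, and KLK13, at 22.2 ± 6.22 and 15.9 ± 5.28 TPM, were not separated, KLK6 being the higher in 6 of 8 libraries. KLK14 was scarce, at 7.65 ± 2.76 TPM in miR-155OE and 6.12 ± 3.29 TPM in CTRL. KLK9 came last in 8 of 8 libraries, at 0.617 ± 0.276 TPM in miR-155OE and 0.470 ± 0.247 TPM in CTRL. That level divides by all 840 exon bases of KLK9, of which 787 are shared with another gene on the same strand. It may therefore be too low, and the last place of KLK9 is uncertain. The level of KLK8, which shares 747 of 1865 exon bases with that gene, carries the same limit.

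**Figure D1:**
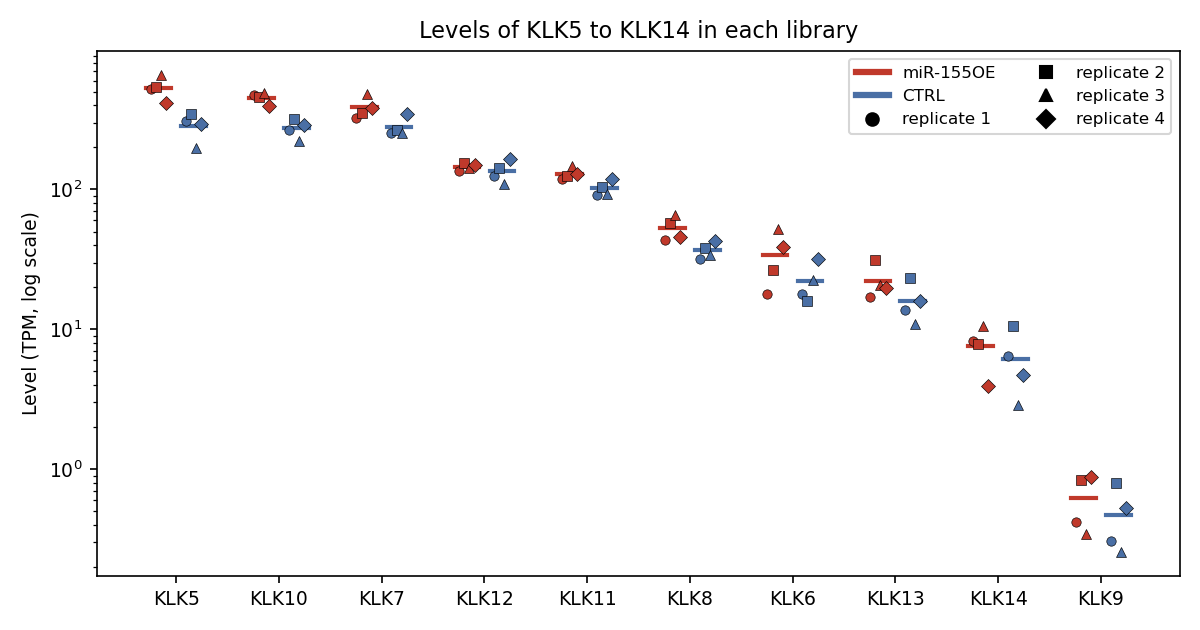
Level of each of the 10 kallikreins in TPM (y axis, log scale) in the 4 miR-155OE libraries (red, left) and the 4 CTRL libraries (blue, right), in order of mean level; marker shapes give the replicate number and bars the group means. KLK5, KLK10 and KLK7 lie above the rest, and KLK9 lies below 1 TPM in all 8 libraries. The lengths include bases that KLK8 and KLK9 share with another gene, so their levels may be too low.

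KLK5 and KLK10 rose in miR-155OE. KLK5, the trypsin-like enzyme at the head of the shedding cascade, had 296, 286, 379 and 255 CPM in miR-155OE libraries 1 to 4, against 175, 198, 116 and 171 CPM in CTRL libraries 1 to 4. Each miR-155OE library was above each CTRL library, with miR-155OE 3 the highest and CTRL 3 the lowest. The means were 304 ± 52.8 CPM in miR-155OE and 165 ± 34.9 CPM in CTRL (SD, n = 4 each), a 1.84-fold higher mean. In edgeR's quasi-likelihood test over all 15135 genes tested the log2 fold change of KLK5 was 0.88 (SE 0.16, 95% interval 0.52 to 1.24), with a Benjamini-Hochberg adjusted p of 0.0225. That call was lost without CTRL 1 (edgeR adjusted p 0.0600), without miR-155OE 1 (0.0657) and without miR-155OE 3 (0.0603), with log2 fold changes of 0.91, 0.89 and 0.76. In these bulk libraries, more cells that express a gene and more of its RNA per cell, or fewer cells and less RNA per cell, cannot be told apart.

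KLK10, a kallikrein abundant in normal stratified epithelia, had 620, 563, 650 and 571 CPM in miR-155OE libraries 1 to 4, against 354, 423, 304 and 395 CPM in CTRL libraries 1 to 4. The groups did not overlap, and the miR-155OE libraries lay closer together than for KLK5. KLK10 averaged 601 ± 41.3 CPM in miR-155OE and 369 ± 51.8 CPM in CTRL (SD, n = 4 each), a 1.63-fold higher mean. Its log2 fold change was 0.70 (SE 0.11, 95% interval 0.47 to 0.94, edgeR adjusted p 0.00886). The call held in each of the 20 alternative settings.

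These were 2 of the 9 kallikreins tested that rose on group alone, beside a background of 2.17% of all genes called higher, and 0 fell, beside 1.05% called lower. At an unadjusted p under 0.05, edgeR gave 5 of the 9, beside 19.3% of all genes tested. DESeq2 called 4 higher (KLK5, KLK7, KLK8 and KLK10), beside 4.51% of its genes. The authors' deposited table called the same 4 higher, beside 3.03% of the genes in it. It rests on the same libraries and gives nearly the same fold changes as DESeq2 here, so it is not separate support. The same 2 genes were the only members whose groups did not overlap, beside 6.16% of all genes that were higher without overlap. The log2 fold change was above 0 for 9 of 9 tested members, with a median of 0.45, beside 48.7% above 0 and a median of -0.01 over all genes tested.

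Fitting the replicate number as a block raised the count of kallikreins that rose to 6 of 9 (KLK5, KLK7, KLK8, KLK10, KLK11 and KLK13), beside 7.43% of all genes called higher in that fit. The same 6 were higher in miR-155OE in 4 of 4 pairs, as were 18.8% of all genes. For the 4 of them called with the block alone, the groups overlapped while each pair moved the same way. The labels state no pairing, and the block treats number 3 as a pair although the data bear it out least. Deviations from the group means correlated at r = 0.181 between the libraries numbered 3, against 0.402 between miR-155OE 3 and another CTRL library. Calls made only with the block carry this limit.

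**Figure D2:**
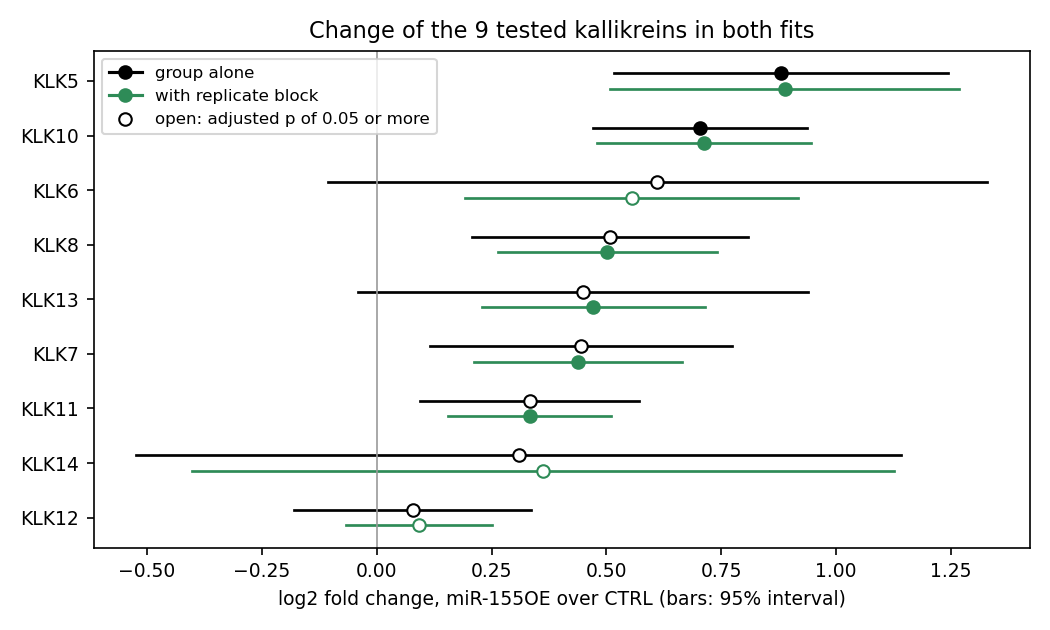
Log2 fold change (miR-155OE over CTRL, x axis) of the 9 tested kallikreins with 95% intervals, from edgeR on group alone (black, upper) and with the replicate number as a block (green, lower). Filled circles mark an adjusted p under 0.05: 2 genes on group alone and 6 with the block.

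KLK7, the chymotrypsin-like enzyme that cuts corneodesmosin, had 271, 275, 405 and 349 CPM in miR-155OE libraries 1 to 4, against 213, 225, 220 and 297 CPM in CTRL libraries 1 to 4. CTRL 4 stood above the other CTRL libraries and above miR-155OE 1 and 2, so the groups overlapped. The log2 fold change of KLK7 was 0.45 (SE 0.15, edgeR adjusted p 0.131) on group alone, and 0.44 (SE 0.10, edgeR adjusted p 0.0225) with the block. The authors' deposited table gives KLK7 an adjusted p of 0.0466.

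KLK8, also called neuropsin, a trypsin-like enzyme of the skin's outer layer, had 27.5, 34.5, 42.4 and 31.9 CPM in miR-155OE libraries 1 to 4, against 20.6, 24.7, 22.5 and 28.1 CPM in CTRL libraries 1 to 4. Only miR-155OE 1 fell below a CTRL library, CTRL 4. The log2 fold change of KLK8 was 0.51 (SE 0.14, edgeR adjusted p 0.0672) on group alone and 0.50 (SE 0.11, edgeR adjusted p 0.0163) with the block.

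KLK11, a trypsin-like member also known as hippostasin, had 127, 124, 159 and 149 CPM in miR-155OE libraries 1 to 4, against 98.7, 113, 103 and 129 CPM in CTRL libraries 1 to 4. The shift was small and the groups met at CTRL 4. Its log2 fold change was 0.33 on group alone (SE 0.11, edgeR adjusted p 0.120) and 0.33 with the block (SE 0.08, edgeR adjusted p 0.0254).

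KLK13, a kallikrein known from esophageal epithelium, had 11.7, 19.98, 14.3 and 14.8 CPM in miR-155OE libraries 1 to 4, against 9.56, 16.1, 7.79 and 11.2 CPM in CTRL libraries 1 to 4. Library 2 was the highest of both groups, and the groups overlapped. KLK13 had a log2 fold change of 0.45 (adjusted p 0.304 in edgeR, SE 0.22) on group alone and 0.47 (SE 0.11, edgeR adjusted p 0.0224) with the block.

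KLK6, a trypsin-like enzyme also named neurosin, had 12.1, 16.6, 35.9 and 28.5 CPM in miR-155OE libraries 1 to 4, against 12.3, 10.8, 15.8 and 22.1 CPM in CTRL libraries 1 to 4. Its values spread more widely within miR-155OE than within CTRL, and its miR-155OE libraries 1 and 2 lay within the CTRL range. Neither fit called KLK6, with a log2 fold change of 0.61 (adjusted p 0.344 in edgeR, SE 0.32) on group alone and 0.56 (SE 0.16, edgeR adjusted p 0.0535) with the block.

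KLK12 and KLK14 passed in neither fit. KLK12, a trypsin-like member, had 81.6, 87.0, 87.6 and 98.5 CPM in miR-155OE libraries 1 to 4, against 76.8, 86.8, 69.0 and 104 CPM in CTRL libraries 1 to 4, and both the highest and the lowest library were CTRL. Its log2 fold change was 0.08 (95% interval -0.18 to 0.34, edgeR adjusted p 0.770), and -0.0054 without CTRL 3. KLK14, a trypsin-like enzyme that can activate KLK5, had 3.34, 2.97, 4.37 and 1.75 CPM in miR-155OE libraries 1 to 4, against 2.63, 4.34, 1.203 and 1.96 CPM in CTRL libraries 1 to 4. The groups overlapped throughout, and its interval of -0.52 to 1.14 around a log2 fold change of 0.31 (edgeR adjusted p 0.715) contains the value of KLK5. With both libraries numbered 3 left out and the block kept, the KLK14 value was -0.13.

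Replicate pair 3 gave the largest difference for 9 of 9 tested kallikreins. The share of all genes with their largest difference in pair 3 was not counted, so this 9 of 9 has no background to be set against. Pair 3 was also the largest for KLK1, AC011473.4, SERPINA12, DSC1, DSG1, CTSL, CASP14 and KRT1, which passed on group alone. STS, which passed as well, had its largest difference in pair 4. The median log2 difference over the members, miR-155OE minus CTRL, was 0.35, 0.31, 0.91 and 0.23 in pairs 1 to 4. The median over all genes tested lay between -0.01 and 0.01 in each pair. The scaling of library sizes holds that median near 0, so it does not show how widely genes differ within a pair. For KLK5 the 4 pairs gave 0.75, 0.53, 1.71 and 0.58, and for KLK10 they gave 0.81, 0.41, 1.10 and 0.53. miR-155OE 3 was the highest and CTRL 3 the lowest of the 8 libraries for KLK5, KLK10 and KLK14. Without both libraries numbered 3, the log2 fold change of KLK5 was 0.62 with the block, and that fit called 6 of 9 members.

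**Figure D3:**
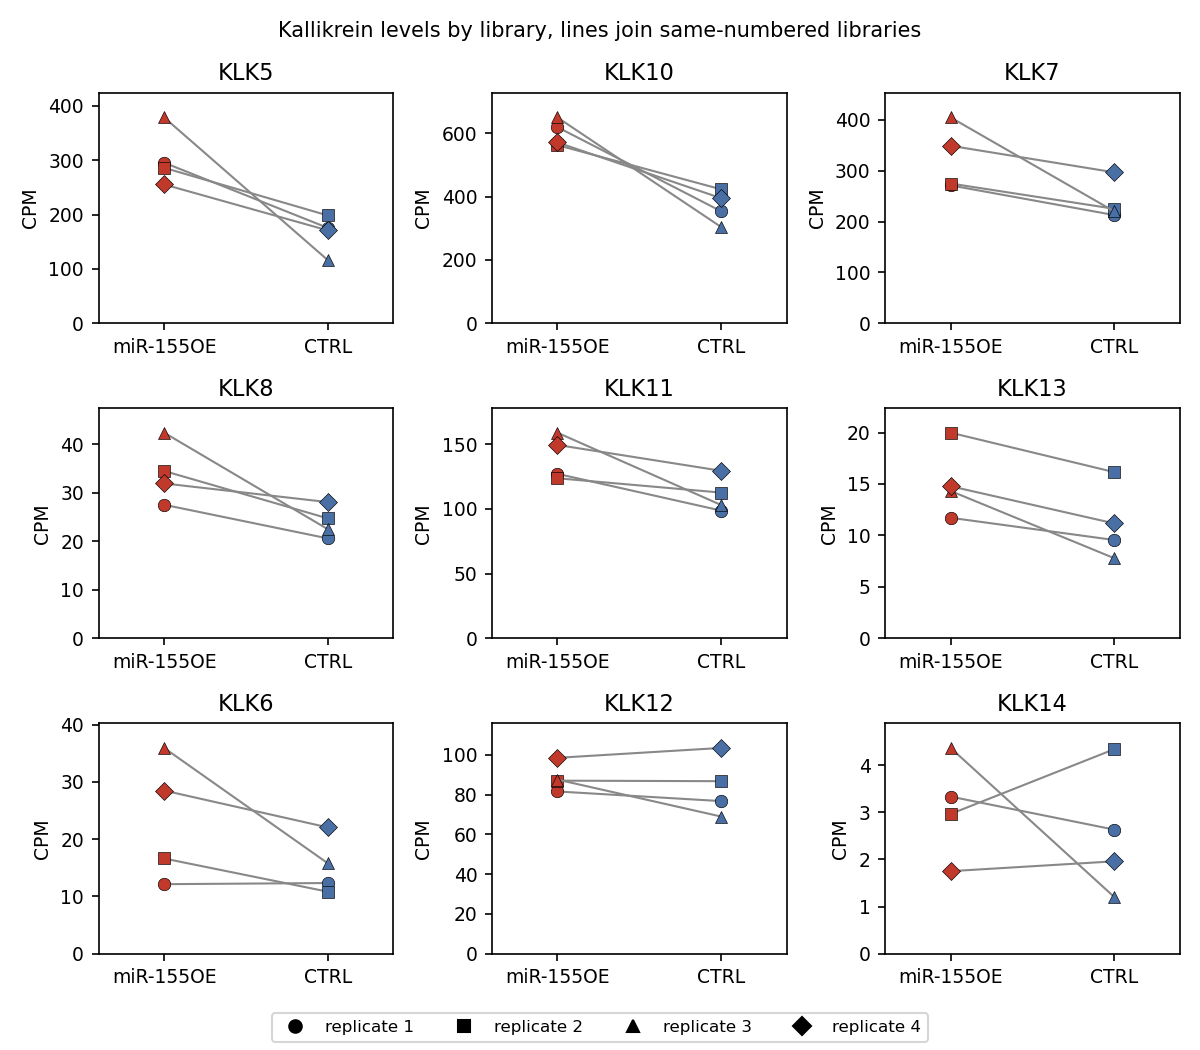
CPM (y axes, from 0) of the 9 tested kallikreins in the 4 miR-155OE libraries (left of each panel) and the 4 CTRL libraries (right), with lines joining libraries of the same replicate number. Lines for KLK5, KLK10, KLK7, KLK8, KLK11 and KLK13 slope down to CTRL in 4 of 4 pairs, and pair 3 (triangles) is the steepest in each panel.

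KLK9 could not be tested, and its reads cannot be parted from those of a longer gene. It had 4, 8, 4 and 10 reads in miR-155OE libraries 1 to 4, against 3, 8, 4 and 6 reads in CTRL libraries 1 to 4, and failed the low-count filter. A gene on the same strand, AC011473.4 (ENSG00000269741, chr19:50996018-51009581), spans KLK8 and KLK9. It shares 787 of the 840 exon bases of KLK9 and 747 of the 1865 exon bases of KLK8, and holds 399 bases of its own. Reads in shared bases cannot be assigned to 1 gene, so the values of KLK8, KLK9 and AC011473.4 are uncertain.

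AC011473.4 had 24.1, 22.1, 53.1 and 28.3 CPM in miR-155OE libraries 1 to 4, against 13.97, 10.7, 13.1 and 16.8 CPM in CTRL libraries 1 to 4. The groups did not overlap, and miR-155OE 3 stood well above the rest. It rose with a log2 fold change of 1.22 (adjusted p 0.0360 in edgeR, SE 0.26), a call lost without CTRL 1, CTRL 2, CTRL 3, miR-155OE 1 or miR-155OE 4, where the edgeR adjusted p was 0.0906, 0.0908, 0.106, 0.0598 and 0.0542. Added together, the 3 genes had 51.8, 56.8, 95.6 and 60.5 CPM in miR-155OE libraries 1 to 4 and 34.7, 35.7, 35.6 and 45.1 CPM in CTRL libraries 1 to 4, with a log2 fold change of 0.81 (adjusted p 0.0403 in edgeR, SE 0.18). That sum was chosen after seeing the data.

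Exons of KLK5, KLK6, KLK10 and KLK12 also overlap genes on the opposite strand, by 202, 401, 240 and 160 bases, and counting is not stated to use strand. The opposite-strand genes were scarce. AC011483.2 averaged 0.687 ± 0.229 CPM in miR-155OE and 0.514 ± 0.296 CPM in CTRL, AC011473.2 averaged 2.24 ± 0.258 and 1.68 ± 0.786 CPM, and AC011473.3 averaged 0.658 ± 0.243 and 0.602 ± 0.252 CPM. None of these 3 passed in edgeR (adjusted p 0.650, 0.560 and 0.884).

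The summed level of the 10 kallikreins was 1.52 times as high in miR-155OE as in CTRL. The sum was 1660, 1757, 2070 and 1582 TPM in miR-155OE libraries 1 to 4, against 1110, 1267, 949 and 1310 TPM in CTRL libraries 1 to 4. The groups did not overlap. KLK5 made up 30.1 ± 2.68% of the sum in miR-155OE and 24.6 ± 3.44% in CTRL, and was the higher in miR-155OE in 4 of 4 pairs, though the groups overlapped. KLK10 made up 25.8 ± 2.00% in miR-155OE and 23.7 ± 1.17% in CTRL, also higher in 4 of 4 pairs and also with overlap. The share of KLK12 was 8.31 ± 1.08% in miR-155OE and 11.7 ± 0.684% in CTRL, without overlap. KLK7, at 21.8 ± 2.28% in miR-155OE and 24.3 ± 2.81% in CTRL, and KLK11, at 7.38 ± 0.498% and 8.83 ± 0.756%, had lower shares in miR-155OE in 4 of 4 pairs. The groups overlapped for the share of KLK7 but not for that of KLK11. The ratio of trypsin-like KLK5 to chymotrypsin-like KLK7 was 1.398 ± 0.234 in miR-155OE and 1.03 ± 0.260 in CTRL, as TPM over TPM, and the groups overlapped. These shares and ratios are descriptions with no test, and shares of 1 sum move against each other by construction.

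The cluster continues beyond KLK5 with the classical kallikreins, KLK1, KLK15, KLK3, KLK2 and KLK4. Of 45 other genes in the block or within 200 kb of it, 7 passed the low-count filter, 2 rose and 0 fell on group alone, beside 3.22% of all genes called in either direction. The 2 were KLK1 and AC011473.4, which lies inside the block and shares exon bases with KLK8 and KLK9. AC011483.2, AC011473.2 and AC011473.3 also lie inside the block and overlap members. The tested genes outside it were KLK1, C19orf48 and CTU1, of which only KLK1 rose. KLK1, tissue kallikrein, which releases kinin from kininogen, had 2.55, 1.82, 3.67 and 1.204 CPM in miR-155OE libraries 1 to 4, against 0.385, 0.347, 0.420 and 0.516 CPM in CTRL libraries 1 to 4. The groups did not overlap. KLK1 averaged 2.31 ± 1.06 CPM in miR-155OE and 0.417 ± 0.0723 CPM in CTRL, with a log2 fold change of 2.46 (adjusted p 0.00730 in edgeR, SE 0.35). KLK2, KLK3 and KLK15 had 0 reads in all 8 libraries, KLK4 had 35 reads and the pseudogene KLKP1 had 23 reads over all 8, too few to test. At the outer edges, C19orf48 had a log2 fold change of 0.30 (edgeR adjusted p 0.169) and CTU1, a transfer RNA modifying enzyme, 0.02 (edgeR adjusted p 0.964).

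**Figure D4:**
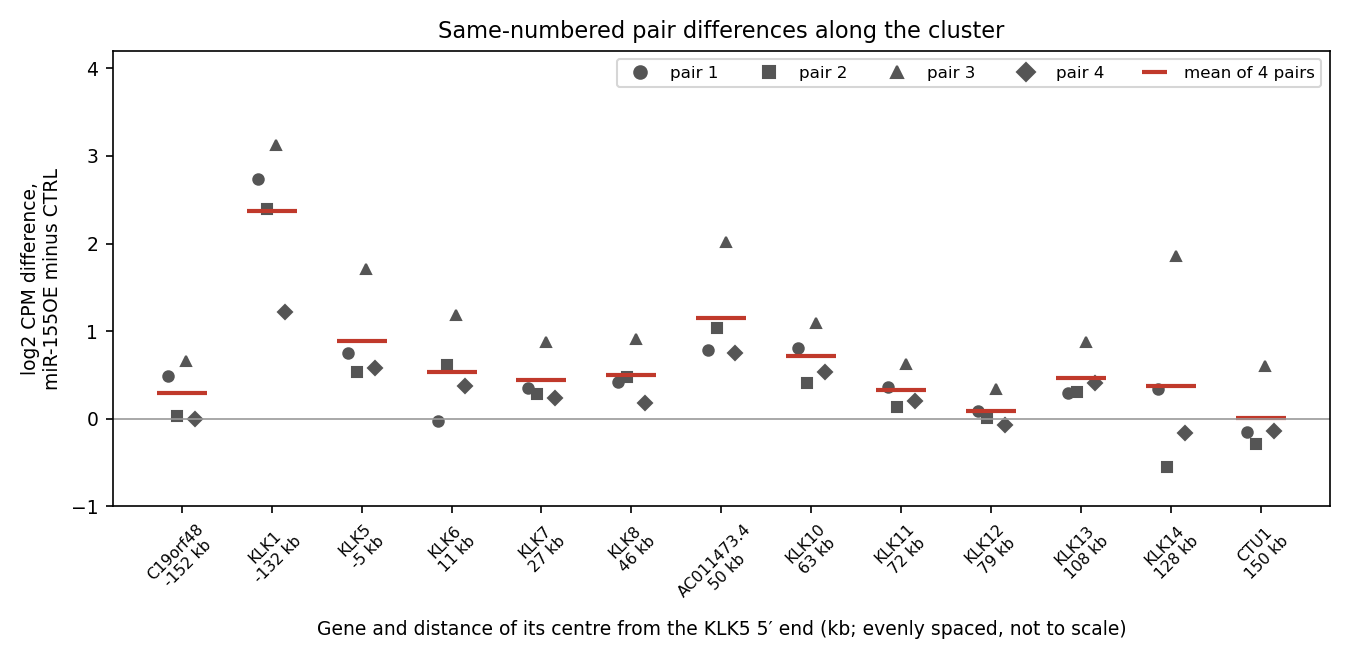
Difference in log2 CPM within each same-numbered pair (miR-155OE minus CTRL, y axis) for the tested kallikreins, KLK1, AC011473.4 and the outermost tested neighbours C19orf48 and CTU1, in genome order with the distance of each gene's centre from the KLK5 5′ end. Bars are means of 4 pairs; KLK1 lies highest, and KLK12 and CTU1 lie nearest 0.

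The stretch before KLK5 is printed because the member with the largest change on group alone starts there. These are 195 bases on the minus strand, chr19:50953094-50953288, from RefSeq on GRCh38.p14, with 2 copies of the ETS core (CCGGAA, read here as TTCCGG on the other strand) in capitals.
KLK5 upstream: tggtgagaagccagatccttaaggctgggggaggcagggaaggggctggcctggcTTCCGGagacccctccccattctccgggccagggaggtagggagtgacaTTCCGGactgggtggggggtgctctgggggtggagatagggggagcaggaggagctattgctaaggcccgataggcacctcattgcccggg
RefSeq gave 16 windows of 250 bases before the starts of 9 members, searched on both strands. Most windows run partly into annotated GENCODE exons. Exons filled all 250 bases of 1 window each of KLK7 and KLK11. They covered 228 bases for KLK12 and 195 for the KLK10 window that holds CCGGAA. Matches were not split into those inside and outside exons. Windows of the same gene can overlap, as for KLK7, KLK10, KLK13 and KLK14, so 1 match can count in more than 1 window. The CCGGAA match of KLK13 is 1 site seen from both of its starts. CCGGAA was found in 6 windows of 5 members (KLK5, KLK6, KLK10, KLK12 and KLK13), against 14.53% of all 35116 windows. GGGCGG, a core bound by SP1 and KLF factors, was in 10 windows of 6 members, against 42.64% of all windows. TATAAA, the AP-1 letters TGANTCA, the grainyhead-like letters AACCGG and the C/EBP letters TTGCNNAA were in 0 of the 16 windows, against 10.72%, 6.573%, 5.992% and 9.05% of all windows. A match is a description of the letters and does not show binding.

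Most of the kallikrein inhibitors passed in neither direction. Of 12 inhibitors tested, 1 rose and 0 fell on group alone, beside 2.17% of all genes called higher. With the block 1 rose and 3 fell, beside 7.43% called higher and 5.17% lower. The median log2 fold change of the list was -0.10. SERPINA12, or vaspin, a serpin that inhibits KLK7, had 19.6, 16.5, 47.0 and 25.5 CPM in miR-155OE libraries 1 to 4, against 4.88, 4.49, 7.24 and 9.37 CPM in CTRL libraries 1 to 4. The groups did not overlap. The log2 fold change of SERPINA12 was 2.06 (SE 0.34, edgeR adjusted p 0.0136), and the adjusted p was 0.0513 without CTRL 3.

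SPINK7, an esophageal Kazal-type inhibitor whose loss is linked to eosinophilic esophagitis, had 58.8, 171, 26.0 and 85.5 CPM in miR-155OE libraries 1 to 4, against 223, 299, 253 and 222 CPM in CTRL libraries 1 to 4. Each miR-155OE library was below each CTRL library. Its log2 fold change was -1.55 (SE 0.43, edgeR adjusted p 0.0771) on group alone and -1.81 (SE 0.32, edgeR adjusted p 0.00812) with the block. SPINK9, a related inhibitor of KLK5, was near its detection limit at 0.185 ± 0.115 CPM in miR-155OE and 0.555 ± 0.165 CPM in CTRL, and fell with the block (edgeR adjusted p 0.0821 on group alone, 0.0296 with the block). SPINT1, an inhibitor of membrane serine proteases, had a log2 fold change of -0.17 (edgeR adjusted p 0.183). A2ML1, a broad protease trap named after its values were seen, was the other inhibitor that fell with the block, with -0.38 on the log2 scale (edgeR adjusted p 0.0241). SPINK5, the gene of LEKTI, was also named after its values were seen: it averaged 3132 ± 744 CPM in miR-155OE and 3160 ± 543 CPM in CTRL, with a log2 fold change of -0.01 (adjusted p 0.976 in edgeR, SE 0.17).

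Among 10 substrates and receptors tested, 2 rose and 0 fell on group alone, beside 2.17% of all genes called higher and 1.05% lower. With the block 5 rose and 1 fell, beside 7.43% called higher and 5.17% lower. The median log2 fold change was 0.17. The 2 were DSC1 and DSG1, desmosomal cadherins that kallikreins cut. DSC1, desmocollin 1, had 151, 32.7, 313 and 181 CPM in miR-155OE libraries 1 to 4, against 7.22, 8.19, 8.15 and 23.8 CPM in CTRL libraries 1 to 4. DSG1, desmoglein 1, had 1120, 502, 1507 and 834 CPM in miR-155OE libraries 1 to 4, against 277, 277, 293 and 430 CPM in CTRL libraries 1 to 4. In both genes the groups did not overlap, with miR-155OE 2 the lowest of its group and CTRL 4 the highest of its own. The log2 fold change of DSC1 was 3.84 (SE 0.63, edgeR adjusted p 0.0136), and the call was lost without CTRL 1 (0.0504) or CTRL 3 (0.0629). That of DSG1 was 1.64 (SE 0.29, edgeR adjusted p 0.0188), lost without CTRL 1 (0.0616), CTRL 2 (0.0572), CTRL 3 (0.0702) or miR-155OE 1 (0.0593).

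F2RL1, the gene of PAR2, averaged 69.2 ± 6.07 CPM in miR-155OE and 58.3 ± 3.03 CPM in CTRL, with a log2 fold change of 0.25 (edgeR adjusted p 0.101 on group alone, 0.0185 with the block). CDSN, corneodesmosin, averaged 1980 ± 358 CPM in miR-155OE and 1426 ± 412 CPM in CTRL, with a log2 fold change of 0.47 (edgeR adjusted p 0.216 on group alone, 0.00508 with the block). The remaining calls of this list with the block, named after the values were seen, were SMPD1, acid sphingomyelinase, which rose by 0.23 (edgeR adjusted p 0.0490), and DSG2, desmoglein 2, at -0.32 (edgeR adjusted p 0.0271).

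The other enzymes of the shedding layer held 3 genes that rose. Of 9 enzymes tested, 3 rose and 0 fell on group alone, beside 2.17% of all genes called higher, and 5 rose and 1 fell with the block, beside 7.43% higher and 5.17% lower. The median log2 fold change was 0.28. STS, steroid sulfatase, which breaks down cholesterol sulfate, averaged 5.49 ± 0.238 CPM in miR-155OE and 2.85 ± 0.334 CPM in CTRL, with a log2 fold change of 0.94 (adjusted p 0.00553 in edgeR, SE 0.13). CTSL, the lysosomal protease cathepsin L, averaged 52.8 ± 7.89 CPM in miR-155OE and 33.3 ± 1.10 CPM in CTRL, with a log2 fold change of 0.66 (adjusted p 0.00914 in edgeR, SE 0.10). CASP14, the caspase of cornification, had a log2 fold change of 1.33 (adjusted p 0.0488 in edgeR, SE 0.31), and was still called in 1 of the 8 fits that left out 1 library, with miR-155OE 2 left out, and the highest adjusted p of the other 7 was 0.124. HPSE, heparanase, had a log2 fold change of 0.40 (edgeR adjusted p 0.0826 on group alone, 0.0189 with the block). With the block CTSC, cathepsin C, also rose, by 0.26 (edgeR adjusted p 0.0149), and CTSB, cathepsin B, had -0.34 (edgeR adjusted p 0.0365). Both were named after their values were seen.

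Of 6 activators tested, 0 rose and 0 fell on group alone, and 0 rose and 2 fell with the block, beside 5.17% of all genes called lower in that fit. The median log2 fold change was -0.09. TMPRSS11D, an airway-type membrane protease, had 16.1, 28.7, 5.51 and 20.8 CPM in miR-155OE libraries 1 to 4, against 38.9, 38.9, 36.9 and 37.3 CPM in CTRL libraries 1 to 4. All 4 miR-155OE libraries were below the narrow CTRL range. Its log2 fold change was -1.10 (edgeR adjusted p 0.120) on group alone and -1.26 (edgeR adjusted p 0.0233) with the block. TMPRSS11E, a protease of the same family, had -1.15 (edgeR adjusted p 0.125) on group alone and -1.26 (edgeR adjusted p 0.00970) with the block. ST14, or matriptase, had a log2 fold change of -0.17 (edgeR adjusted p 0.211), and PLAU, urokinase, 0.13 (edgeR adjusted p 0.546). Of 4 cystatins tested, which inhibit cysteine proteases, 0 passed on group alone and 2 fell with the block, beside the same 5.17%. CSTB had a log2 fold change of -0.41 (edgeR adjusted p 0.101 on group alone, 0.0270 with the block) and CST6 -0.52 (0.186 and 0.00101). CSTA and CST3 passed in neither fit, at -0.09 and 0.02.

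**Figure D5:**
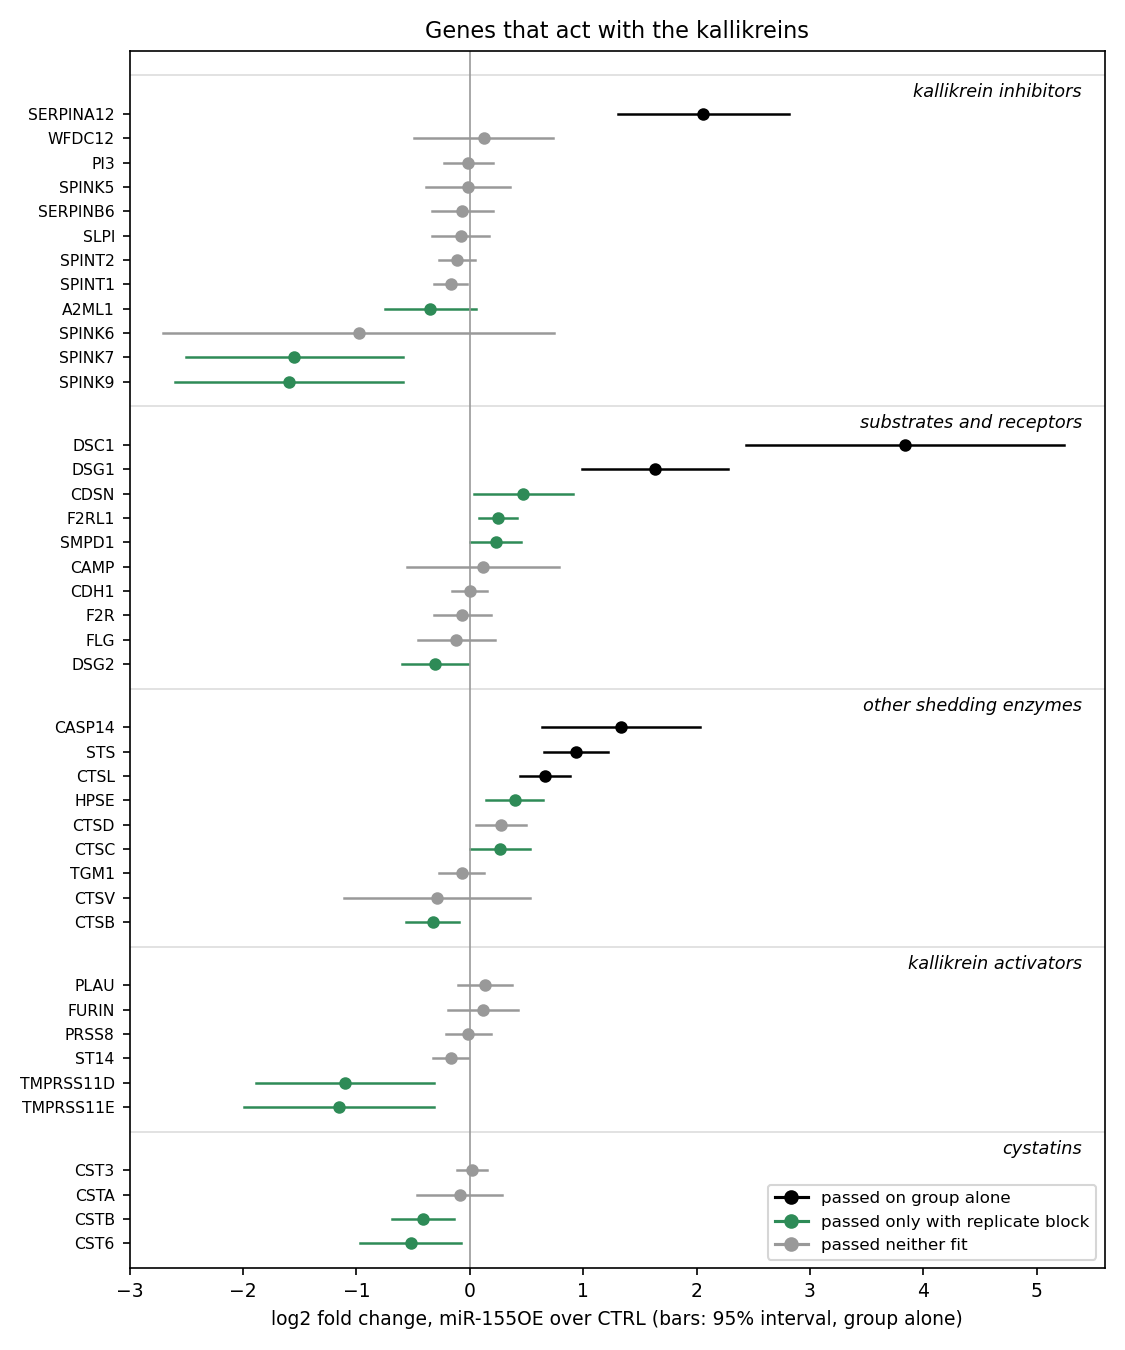
Log2 fold change (miR-155OE over CTRL, x axis) with 95% intervals of the tested genes that inhibit, are cut by, act beside or activate kallikreins, and of the cystatins, by list. Black genes passed on group alone (6 in all), green genes passed only with the replicate block and grey genes passed in neither fit.

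Markers of epithelial layers moved beside the kallikreins, and their part in the result was not tested. Of 17 genes of upper layer differentiation tested, 2 rose and 0 fell on group alone, beside 2.17% of all genes called higher and 1.05% lower. With the block 5 rose and 5 fell, beside 7.43% and 5.17%. The 2 were KRT1 and CASP14. CASP14 is also counted among the shedding enzymes above, and its call held in 1 of the 8 fits that left out 1 library. The count that fell on group alone was 5 without miR-155OE 2 and 4 with no low-count filter. The median log2 fold change was -0.09. KRT1, the keratin of the skin's spinous layer, averaged 6336 ± 2846 CPM in miR-155OE and 951.9 ± 400.1 CPM in CTRL, with a log2 fold change of 2.73 (adjusted p 0.00685 in edgeR, SE 0.39). KRT4, a keratin of the esophageal lining, averaged 17.3 ± 20.8 CPM in miR-155OE and 95.4 ± 29.3 CPM in CTRL, with a log2 fold change of -2.47 (edgeR adjusted p 0.0745) on group alone and -3.004 (edgeR adjusted p 0.00696) with the block. ELF3, an epithelial ETS factor, had a log2 fold change of -0.80 (edgeR adjusted p 0.0590 on group alone, 0.0116 with the block). With the block the genes that rose were KRT1, KRT10, KRTDAP, CASP14 and GRHL1, and those that fell were KRT4, KRT13, CRNN, SPRR3 and ELF3.

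Of 10 basal layer genes tested, 0 passed on group alone, and 0 rose and 3 fell with the block, beside 5.17% of all genes called lower. The median log2 fold change was -0.13. LAMB3, a laminin chain of the basement membrane, had a log2 fold change of -0.48 (edgeR adjusted p 0.169 on group alone, 0.00413 with the block), and LAMA3, its partner chain, -0.53 (0.365 and 0.00810). KRT15, a basal keratin named after its values were seen, was the third that fell with the block (edgeR adjusted p 0.0292). ITGB4, the hemidesmosome integrin, and KRT5, the basal keratin, passed in neither fit, at -0.18 and -0.18.

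The 5 genes whose levels most resembled the kallikreins were found by Pearson correlation with the mean standardised log2 CPM of the 9 tested members over the 8 libraries, among 9899 genes with a mean of at least 5 CPM. LCE2A, a late cornified envelope gene, had r = 0.994 and rho = 1. TRAF7 had r = 0.958, LCE2B, another late cornified envelope gene, r = 0.956, CTSD, or cathepsin D, r = 0.956 and ELMOD1 r = 0.952. These are descriptions over libraries that fall into 2 groups, and no p is given. LCE2A averaged 11.3 ± 6.24 CPM in miR-155OE and 3.24 ± 2.07 CPM in CTRL, and passed in edgeR with the block (adjusted p 0.0258) but not on group alone (adjusted p 0.0608). LCE2B averaged 42.8 ± 19.2 CPM in miR-155OE and 15.7 ± 9.46 CPM in CTRL (edgeR adjusted p 0.0757 on group alone, 0.00874 with the block). TRAF7 and CTSD passed in neither fit. TRAF7 had a log2 fold change of 0.13 (edgeR adjusted p 0.272 on group alone, 0.165 with the block), and CTSD 0.28 (0.157 and 0.0878). ELMOD1 had 0.78 (edgeR adjusted p 0.0553 on group alone, 0.0238 with the block).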

How the data were processed

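Total RNA of 8 libraries was sequenced after NEBNext Ultra preparation, per the labels' protocols. Tools named in the submitters' processing notes are featureCounts 1.5.0-p3, HISAT2 2.0.5 and DESeq2, with the build GRCh38, and the strand setting is not given in the sources used here. Raw read counts were deposited per gene with gene lengths, per the file headers. A second deposited table gives a normalised signal, counts divided by 1 size factor per library by the authors, with the authors' log2 fold change and p-value. It was used only where it is named.

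Counts were fitted in R 4.3.3 with edgeR 4.0.16 (filterByExpr, TMM, quasi-likelihood F test, group alone, Benjamini-Hochberg adjustment over 15135 genes, threshold 0.05). Each SE was derived from the fold change and its F statistic. CPM uses TMM-scaled library sizes, and TPM uses the deposited lengths. Alternatives were DESeq2 1.42.0, other size factors and filters, the replicate block and leaving out libraries.

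Deviations from the group means of same-numbered libraries correlated over 10291 genes, with r of 0.573 (number 1), 0.493 (number 2), 0.181 (number 3) and 0.603 (number 4). Same-numbered libraries were compared as pairs beside the test on group alone, although the labels state no pairing. For numbers 1, 2 and 4 the correlation was higher than with any other CTRL library. For number 3 another library correlated more, at 0.402. Replicates differed by more than sampling noise, with chi-square over degrees of freedom between 16.0 and 84.5.

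The members and lists were chosen with earlier results of these data known. The list of substrates and receptors is given without a gene that is not reported here. Named genes are the 10 members, KLK1, KLK2, KLK3, KLK4, KLK15, KLKP1, genes overlapping a member, tested genes within 200 kb, per list the 4 lowest p plus any that passed, and the 5 genes most alike in level. Gene models are GENCODE release 29 on GRCh38, and promoter and microRNA sequences are from RefSeq. Figures were drawn with Python 3.11.15 and matplotlib 3.10.9.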

Additional observations from a re-analysis of the deposited data

Results flagged for a closer look

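Of 20 sets of 4 library values looked at for the kallikreins, 1 held a library far from the others. KLK7 had 297 CPM in CTRL 4, against 213 to 225 CPM in the other 3 CTRL libraries, so that 0.853 of the group's range lay in that gap, above Dixon's critical value for 4 samples. Chance flags about 1 in 20 such sets.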

How the results depend on the processing

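The count of kallikreins that rose, 2 on group alone in edgeR, was 6 with the replicate block, 6 with the block after KLK8, KLK9 and AC011473.4 were summed, 4 with DESeq2 and 7 with DESeq2 and the block. It ranged from 1 to 2 with 1 library left out (1 without CTRL 1, miR-155OE 1 or miR-155OE 3, where KLK5 was lost) and from 3 to 6 with both libraries of 1 replicate number left out and the block kept. The count that fell was 0 in each setting run. Over all genes the count, 488 on group alone, was 1908 with the block, 1906 with the block and the sum, 1200 with DESeq2, 1858 with DESeq2 and the block and 927 with no low count filter. It ranged from 125 to 1274 with 1 library left out and from 623 to 2059 with 1 replicate number left out and the block kept (1389 without number 3, 971 without number 4). The direction reversed for KLK12 without CTRL 3 (-0.0054, where leaving out 1 library gave up to 0.19) and for KLK14 without both libraries numbered 3 (-0.13), and the cause was not tested. Of 180 alternative values over the tested members, 147 kept direction and side of the threshold, 28 passed it newly, 3 lost it (KLK5) and 2 reversed. The 28 include 2 that are not of KLK8 alone. In these the sum of KLK8, KLK9 and AC011473.4 stood in its place (edgeR adjusted p 0.0403 on group alone, 0.00862 with the block). That sum was chosen after seeing the data. Low counts limit KLK9 and KLK14.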
